A study of Mus musculus with 6 samples.

Results

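Peaks of open chromatin that carry the name of a predicted mouse gene, Gm followed by a number, made up 2884 of the 123510 ATAC-seq peaks measured in small intestinal crypts. A peak was a member when the deposited table named it after such a gene, which the table did for the nearest gene within 5 kb. Of 2892 peaks with a Gm name, 7 in a cluster on chromosome 5 and 1 on chromosome 1 were left out by the same rule. The members belonged to 1305 genes, of which 763 had a single peak, and they are compared with the 59022 other named peaks of the table. WT strength is the mean of the 3 WT libraries for a peak, as a log2 normalized read count.

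ATAC-seq uses a transposase that cuts and tags accessible DNA, so that read counts over a peak measure how open the site is. The study compared C57BL/6 WT mice with Smarcad1-KO mice of the same strain, in which Cre recombinase driven by the Villin promoter removes floxed exons of Smarcad1 in the epithelium of the intestine, with 3 libraries in each group numbered 1 to 3 (WT1 to WT3 and KO1 to KO3). Each library came from nuclei of whole small intestinal crypts, so cells that the Villin promoter does not reach can be among them. The sample labels give no age, and nothing in them says whether same-numbered mice were littermates, so p-values measure only the spread between these libraries. Fewer open cells and less signal per cell cannot be told apart in such bulk samples.

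Smarcad1 is an ATP-dependent chromatin remodeler known for keeping heterochromatin and repeated DNA silent. Names that start with Gm are placeholders given to mouse gene models before a function is known, and they cover long noncoding RNAs, pseudogenes, predicted proteins and readthrough transcripts that join neighbouring genes. A name therefore says which gene model lies nearest to a peak, not which gene the open site serves. In GENCODE vM21 the members fell to long noncoding genes (1609 peaks, 55.8%), protein-coding models (939 peaks, 32.6%) and pseudogenes (194 peaks, 6.73%), with 12 peaks of other classes, and 130 peaks had a gene that this release does not hold.

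The sequences of 5 members that are named in the results are shown (GRCm38, plus strand). The first pair come from a group of 10 members that share words with satellite-like DNA, and they show its tandem repeat. Capitals mark each base that equals the base 234 positions further on. In Gm10718 this held for 225 of the 234 bases of chr9:3023265-3023498 and in Gm10800 for 226 of the 234 bases of chr2:98666549-98666782, windows picked as the stretch of each peak that repeats best. The third sequence is the middle of the peak with the largest decrease in KO, at Gm3629 (chr14:6658231-6658470), with capitals for the 3 bases that differ from its closest further copy. The last pair are the lowest Gm12132 peak (chr11:40193701-40194000) and the member with the largest increase among those whose groups did not overlap, at Gm11228 (chr4:71104501-71104800), with capitals for bases masked as repeats, 23 and 63 of 300.
Gm10718: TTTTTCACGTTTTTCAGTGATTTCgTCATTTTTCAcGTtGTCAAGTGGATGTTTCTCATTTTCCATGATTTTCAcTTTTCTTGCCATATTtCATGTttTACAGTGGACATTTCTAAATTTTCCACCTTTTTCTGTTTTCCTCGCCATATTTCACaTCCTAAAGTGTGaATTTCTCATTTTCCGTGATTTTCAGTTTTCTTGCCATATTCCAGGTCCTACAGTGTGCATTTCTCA
Gm10800: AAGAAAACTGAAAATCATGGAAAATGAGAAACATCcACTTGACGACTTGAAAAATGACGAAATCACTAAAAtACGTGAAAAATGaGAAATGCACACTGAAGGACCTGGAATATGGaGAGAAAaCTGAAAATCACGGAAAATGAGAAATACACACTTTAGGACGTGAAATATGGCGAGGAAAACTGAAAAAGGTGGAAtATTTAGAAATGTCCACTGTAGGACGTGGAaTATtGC
Gm3629: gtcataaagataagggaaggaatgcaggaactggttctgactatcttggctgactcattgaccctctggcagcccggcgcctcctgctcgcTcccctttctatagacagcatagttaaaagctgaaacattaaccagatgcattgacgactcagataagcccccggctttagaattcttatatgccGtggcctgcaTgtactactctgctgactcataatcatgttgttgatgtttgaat
Gm12132: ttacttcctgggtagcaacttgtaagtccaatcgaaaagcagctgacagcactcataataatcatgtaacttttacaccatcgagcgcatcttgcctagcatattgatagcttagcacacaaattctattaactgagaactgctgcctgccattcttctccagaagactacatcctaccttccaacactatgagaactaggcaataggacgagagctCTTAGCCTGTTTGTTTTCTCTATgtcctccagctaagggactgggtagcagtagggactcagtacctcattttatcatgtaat
Gm11228: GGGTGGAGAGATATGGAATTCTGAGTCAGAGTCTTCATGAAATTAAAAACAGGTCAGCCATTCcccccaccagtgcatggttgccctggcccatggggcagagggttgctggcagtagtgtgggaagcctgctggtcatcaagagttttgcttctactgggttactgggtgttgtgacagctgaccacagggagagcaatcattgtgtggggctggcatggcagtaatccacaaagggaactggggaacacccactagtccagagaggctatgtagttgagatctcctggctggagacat

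The libraries differed in depth, with 6180717 to 16301164 reads in peaks in WT and 4339306 to 7721797 in KO, and the members took 2.75% to 2.99% of them. The median member held 34 to 76 reads per WT library and 20 to 44 per KO library, and 1 member, at Gm16365, had no read in KO3. Epithelial identity was checked at gene starts, where a peak within 1 kb was listed for 4 of 7 epithelial genes (Cdx2, Krt20, Cdh1 and Hnf4a, WT strength 8.02 to 9.73), for 4 of 5 crypt stem and Paneth genes and for 3 of 3 goblet, enteroendocrine and tuft genes. No such peak was listed at Vil1, Epcam, Krt8 or Ascl2. None was listed at the 4 immune genes or at 3 genes of other tissues, while 2 of 3 stromal and endothelial genes had one (Col1a1 at 6.02 and Vim at 7.93).

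Gm peaks were a little weaker in WT than other named peaks. Their median WT strength was 6.08 against 6.24, a difference of -0.16. Taken in WT1, WT2 and WT3 alone, the difference of medians was -0.12, -0.12 and -0.18, with an SD of 0.035. The members' median lay below that of the other named peaks in 6 of 6 libraries, by 0.12 to 0.18. They were also narrower, with a median width of 750 bp against 900 bp, and per kb of width the difference shrank to -0.05. In the same classes of distance to a gene start it grew to -0.26. The middle 50% of the members ran from 5.35 to 7.17 and all members from 4.17 to 12.97.

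Much of the range among the members followed their position. The deposited table placed 75.9% of them over the gene they are named for, against 88.6% of other named peaks, and the rest upstream (13.2%) or downstream (10.9%). By GENCODE, 50.2% lay in an intron of the named gene, 16.0% over a noncoding exon, 5.34% over a coding exon and 26.6% outside it. A gene with another, non-Gm name lay under 672 members (23.3%), against 7.23% of other named peaks. By chromosome, 15.3% were on chromosome 4, 14.3% on chromosome 2 and 12% on chromosome 8, where other named peaks had 6.51%, 8.35% and 4.76%.

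The strongest class of members lay at the start of a gene with a different name. An annotated start within 1 kb was that of the named Gm gene alone for 363 members, of a non-Gm gene alone for 161, of both for 154 and of another Gm gene alone for 78, and 2128 members had no gene start nearby. Median WT strength was 5.85 without a start, 6.43 at the Gm start alone, 7.63 at another gene's start and 8.32 where both lay together. Other named peaks without a start were similar to the members, at 5.93. Other named peaks at their own start alone were far stronger, at 7.89.

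**Figure D1:**
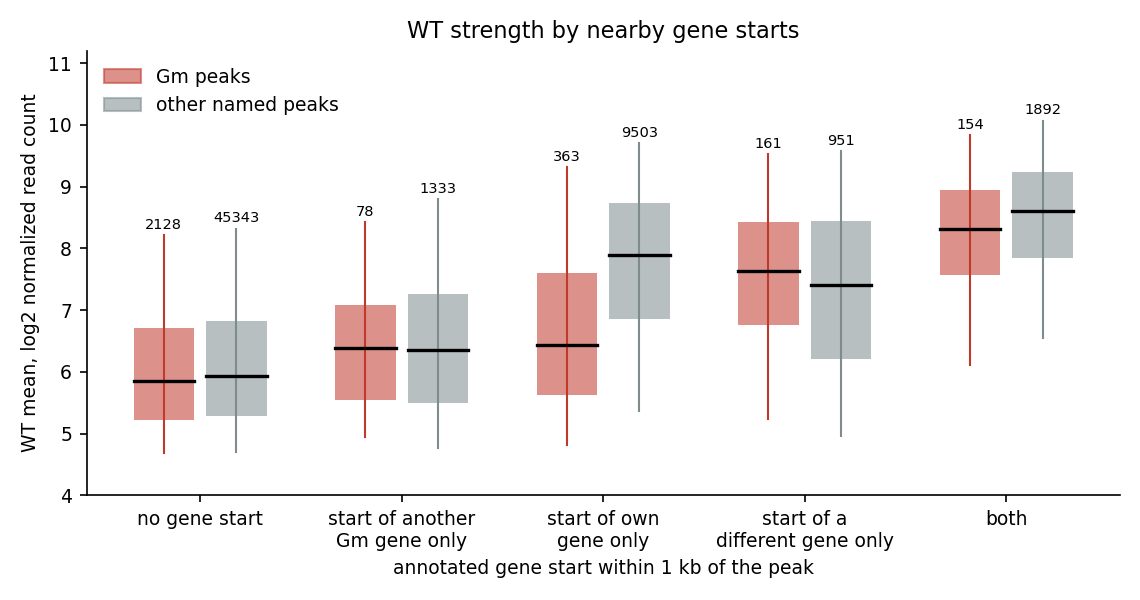
WT strength (log2 normalized read count) of Gm peaks (red) and other named peaks (grey) by the annotated gene starts within 1 kb. Black lines are medians, boxes hold the middle 50%, thin lines run from the 5th to the 95th percentile and numbers count peaks; the medians at the own start alone are 6.43 and 7.89.

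At the own start alone, the median of the members in each library was 6.43, 6.24 and 6.69 in WT1 to WT3 and 6.52, 6.25 and 6.75 in KO1 to KO3. Other named peaks of the same class had 7.94, 7.55 and 8.20 in WT and 7.91, 7.50 and 8.32 in KO, above the members in every library. The gap was widest among protein-coding models, with 6.48 for 127 members against 8.02 for 8673 other named peaks. Of these, 21.3% of the members and 0.542% of the other named peaks had a further copy in the genome, as defined below. Whether that bears on the gap was not tested. Among long noncoding genes it was 6.77 for 183 members against 7.18 for 119 other named peaks, and among pseudogenes 5.63 for 38 against 5.66 for 43. The 127 protein-coding members were still stronger than the 692 without a start nearby, at 5.91, and pseudogene starts were low under either kind of name. CpG dinucleotides, which mark the promoters of widely used genes, made up a median of 1.62% at Gm starts alone, 5.48% where a Gm start and another gene's start lay together, 0.889% at members without a start and 4.62% at the own start of other named peaks.

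Named by the rule for the strongest members, 6 peaks led the list. Gm10800 (chr2:98665951-98667600, WT strength 12.97) and Gm10801 (chr2:98662051-98663250, 11.68) lay over coding exons of their models on chromosome 2, in the satellite-like group. Gm15927 (chr7:3643951-3646650, 10.81) lay over the start of Cnot3, a subunit of the CCR4-NOT deadenylase. Gm16091 (chr8:72160051-72163200, 10.68) lay over the start of Rab8a, a small GTPase of vesicle transport, and Gm14966 (chr19:6362851-6364950, 10.40) over that of Sf1, a splicing factor. Gm7461 (chr8:4676401-4679550, 10.65) had only its own start nearby. None of the 6 differed between genotypes by more than 0.15 in either direction, and their standard errors were 0.36 to 0.50.

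The satellite-like members were found from the sequence, by the share of 12-base words on either strand that also stand in the Gm10718 and Gm10717 peaks, where 92.1% and 91.4% of bases equal the base 234 further on. This is the length of the unit of mouse major satellite, the repeat of pericentromeric heterochromatin. The share passed 20% in 10 members, 2 on chromosome 2 and 8 between Gm10722 and Gm17535 on chromosome 9. It was 100% by construction in the 2 peaks that gave the words and 21.2% to 80.5% in the rest of the 10. The share was at most 4.30% in any other member. Its limit of 20% was set after the values were seen, and a limit of 30% kept 9 of the 10 and left out Gm10801. Among the 59022 other named peaks, 1 passed the limit of 20%. The 10 peaks had 34.0% to 37.1% GC, against a median of 48.6% over all members, and 55.1% to 98.7% of their bases were masked as repeats.

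These 10 peaks varied more between libraries than between genotypes. Gm10800 measured 12.86, 13.56 and 12.49 in WT1 to WT3 and 12.93, 13.17 and 13.27 in KO1 to KO3. The larger Gm10722 peak (chr9:2999851-3001800) measured 8.21, 9.11 and 8.04 in WT and 8.16, 8.79 and 8.08 in KO. WT2 was the highest of all 6 libraries in 10 of 10 peaks, whereas it was the highest WT library in 18.9% of all members and the lowest in 57.9%. KO2 was the highest KO library in 6 of the 10. Differences between genotypes ran from -0.21 to 0.15, the groups overlapped in all 10, and the peaks held 2.07% to 5.60% of reads in Gm peaks in WT libraries and 3.10% to 4.45% in KO libraries. Reads from such repeats can be placed at several copies. The study set a cutoff on mapping quality when reads were imported, and its effect on these peaks was not tested.

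**Figure D2:**
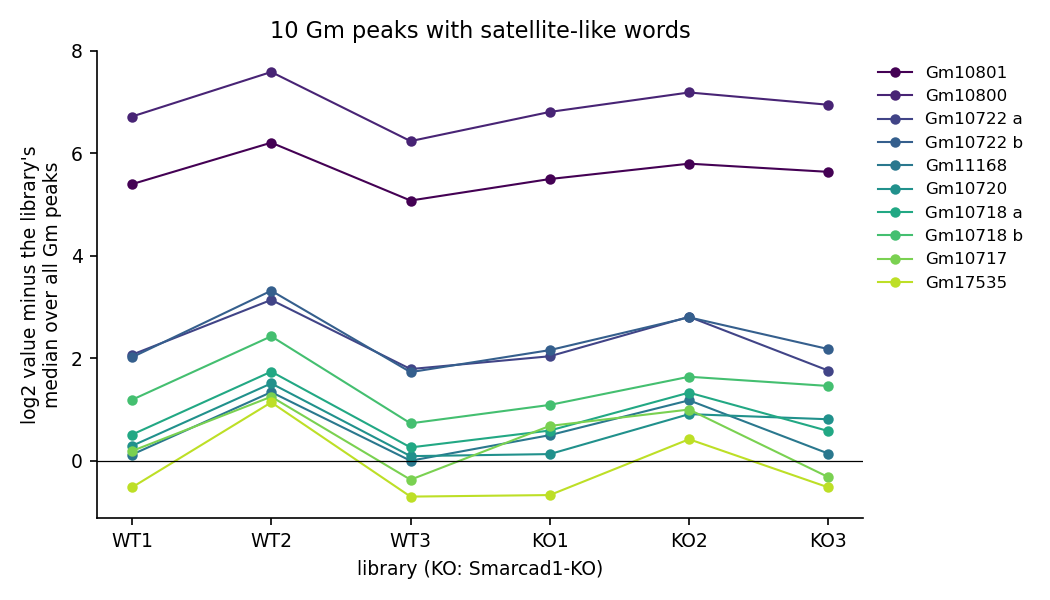
Level of each of the 10 satellite-like Gm peaks in each library, as its log2 value minus the library's median over all Gm peaks; a and b are 2 peaks of 1 gene and lines join the same peak. WT2 is the highest library for all 10 peaks, and the genotypes overlap in each.

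Gm peaks were repeated elsewhere in the genome more often than other named peaks. A further place with at least 95% identity over at least 90% of the peak was found for 117 members (4.06%) and for 0.590% of other named peaks, and 28 of the 117 were on chromosome 14. Among protein-coding Gm models 8.73% had such a copy, and among long noncoding ones 1.06%. The 117 peaks were weak, with a median WT strength of 5.38, and the SD of their KO minus WT differences was 0.352, against 0.269 in the 2767 members without a copy. Other named peaks with a copy had an SD of 0.480.

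Deletion of Smarcad1 was followed by no Gm peak that passed the test without a replicate block. With limma on all 123510 peaks and 6 libraries, 0 of 2884 members and 0 of all peaks (0%) had an adjusted p below 0.05. The study's own edgeR test, also at an adjusted p below 0.05, did list changed peaks, among them the Gm3629 peak described below. With a block for the replicate number, limma called 6 members (0.208%) and 0.220% of all peaks. An unadjusted p below 0.05 was found for 62 members (2.15%), 27 higher and 35 lower in KO, where the share over all peaks was 2.28%. The 3 KO libraries lay above the 3 WT libraries in 96 members (3.33%), against 2.70% of all peaks, and below them in 101 members (3.50%), against 4.10% of all peaks. Other named peaks of equal WT strength had shares of 2.94% higher and 2.93% lower. The 96 peaks belonged to 80 genes and the 101 to 88, with median differences of 0.49 and -0.45, and 14 and 9 of them had a gene start inside 1 kb. Without WT2 the count at an unadjusted p below 0.05 was 130, and without WT1 it was 21. With any 1 library left out, 327 to 534 members had groups that did not overlap, since fewer values then had to stand apart. No share over all peaks stands beside these leave-out counts, so they are no result about Gm peaks in particular.

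The tails of KO minus WT lay close to those of other named peaks at the 1st and 99th percentiles, which were not weighted to equal strength. A log2 difference beyond 1 in either direction was found for 8 members (0.277%), against 0.440% of all peaks and 0.330% of other named peaks weighted to equal WT strength in 10 bins. A difference beyond 0.5, a limit chosen after seeing the data, was found for 220 members (7.63%), against 8.25% of all peaks and 6.81% of other named peaks of equal strength. By direction, 98 members (3.40%) were beyond 0.5 upward and 122 (4.23%) downward, where other named peaks of equal strength had 3.13% and 3.69%. The 1st and 99th percentiles were -0.71 and 0.65 for the members and -0.70 and 0.66 for other named peaks, around a median of 0.01 in both. Beyond 1, a single member (0.0347%) was higher in KO, under the 0.149% of other named peaks of equal strength and 0.160% of all peaks. Another 7 (0.243%) were lower, against 0.180% and 0.279%. These shares have no test, since peaks of a library are not replicates, and the count beyond 1 was 8 members without WT1, 24 without WT2, 20 without WT3, 17 without KO1, 25 without KO2 and 15 without KO3.

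The spread of the members fell with their strength. Among the members of the weakest bin (WT strength 4.17 to 4.89, a median of 7 to 28.0 reads per library) the SD of KO minus WT was 0.351, and 22.1% lay beyond 0.5. In the strongest bin (8.27 to 12.97) the SD was 0.115 and 0% lay beyond 0.5. Other named peaks in the same bins had SDs of 0.352 and 0.114 and shares of 16.5% and 0.104%. In the third bin 17.7% of members and 12.5% of other named peaks were beyond 0.5, in the second bin 13.9% and 15.6%, and in the 3 strongest bins no share of either exceeded 0.992%. The share at gene starts rose along the same bins, from 10.4% to 66.1% of the members. The median difference in the weakest bin was 0.09 in members and 0.10 in other named peaks, and WT values enter both the strength and the difference.

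**Figure D3:**
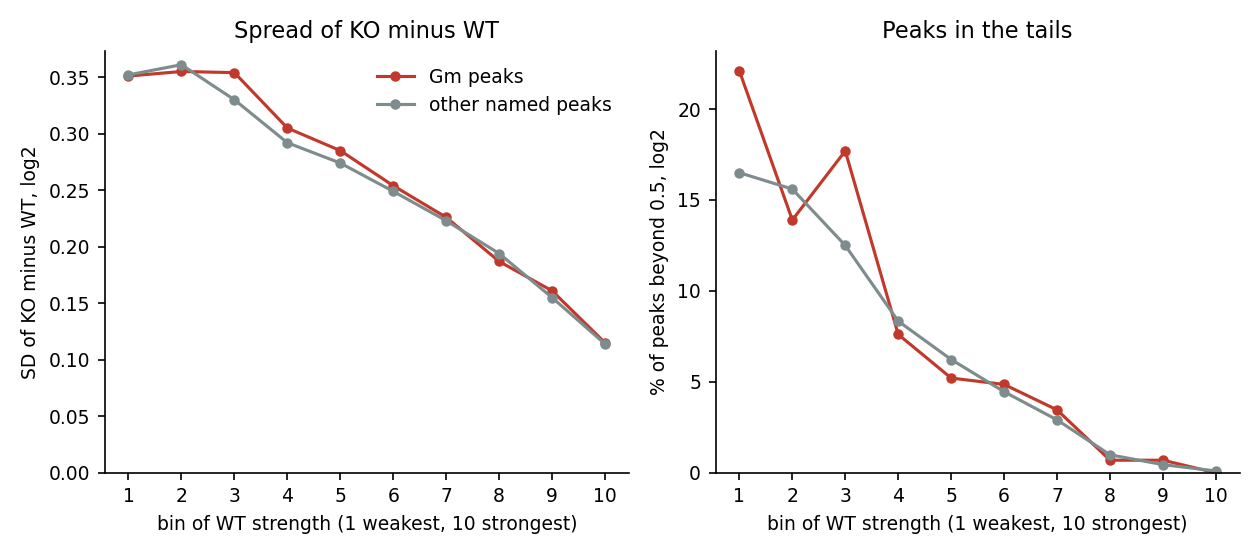
SD of the KO minus WT log2 difference (left) and percentage of peaks beyond 0.5 in either direction (right) in 10 bins of WT strength set at the deciles of the Gm peaks, for Gm peaks (red, 288 or 289 per bin) and other named peaks (grey). The SD falls from 0.351 to 0.115 in Gm peaks and from 0.352 to 0.114 in other named peaks.

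The 8 highest members whose groups did not overlap were almost all weak peaks away from gene starts. Gm11228, a lincRNA on chromosome 4 (the peak printed above, in its intron), measured 4.56, 4.46 and 4.09 in WT and 5.12, 5.22 and 5.70 in KO, on 12 to 26 reads. Its difference was 0.98 (standard error 0.33, limma adjusted p 1). Gm15458, a lincRNA on chromosome 17 (chr17:27734251-27735450, over its own start), measured 5.97, 6.58 and 6.41 in WT and 7.27, 7.31 and 6.95 in KO. It was the strongest of the 8 and the only one at a gene start, with 31 to 111 reads and a difference of 0.86 (standard error 0.27). A Gm20388 intron peak (chr8:122369551-122370150) measured 5.06, 5.69 and 5.25 in WT and 6.25, 6.22 and 6.00 in KO, a difference of 0.83 (standard error 0.26), and had the smallest unadjusted p in this direction, 0.00637 in limma. The other 5, at Gm16485, Gm10714, Gm6563, Gm15614 and Gm16079, had differences of 0.79 to 0.89 and WT strengths of 4.18 to 5.07. Without WT1 the difference was 0.26 at Gm10714 and 0.57 at Gm16485. All 8 had a limma adjusted p of 1.

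The 8 lowest such members included larger differences. Gm3629, named for a predicted protein-coding gene (chr14:6658051-6658650), measured 6.10, 5.27 and 6.57 in WT and 4.12, 4.61 and 3.58 in KO, on 35, 21 and 95 reads in WT and 8, 17 and 3 in KO. All 3 KO libraries were under all 3 WT libraries, a difference of -1.88 (standard error 0.38). The limma unadjusted p was 0.000171, the smallest of any member, and the adjusted p was 0.851. Without KO2 the difference was -2.13 and the limma adjusted p 0.0258. The deposited table placed the peak over Gm3629, whereas in GENCODE vM21 it lay outside that gene, and it was the only member among the 74 peaks listed in the table of changed peaks as used here, which is shorter than the study's own list. Its sequence had 9 further copies, the closest at chr14:3760942-3761541 on the minus strand, which differs by 4 edits over 600 bases. The study set a cutoff on mapping quality, and which of the copies gave the remaining reads was not tested.

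Gm12132 and Gm17377 followed. The Gm12132 peak printed above measured 5.43, 4.88 and 5.29 in WT and 2.71, 4.77 and 3.00 in KO, where KO1 and KO3 held 3 and 2 reads and KO2 held 19, close under the lowest WT value. Its difference was -1.71 (standard error 0.54, limma unadjusted p 0.00671, adjusted p 1). Gm17377, a processed pseudogene on chromosome 17 with the peak 4764 bp downstream (chr17:55316401-55316850), measured 5.78, 5.34 and 5.52 in WT and 4.71, 4.98 and 3.00 in KO, a difference of -1.32 (standard error 0.45). Without KO3, which held 2 reads there, the Gm17377 difference was -0.70. The other 5 were Gm20449, Gm20498, Gm10658, Gm13479 and Gm12023, with differences of -0.96 to -0.82 and WT strengths of 5.03 to 5.70. At Gm20449, the lowest of these, the difference was -0.42 without KO3 and -0.58 with voom on recovered reads. The Gm20498 peak lay over a coding exon of Synj2bp, whose exons this readthrough model shares. No gene start was nearer than 1 kb to any of the 8. Apart from Gm3629, the limma adjusted p was 1 for each.

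**Figure D4:**
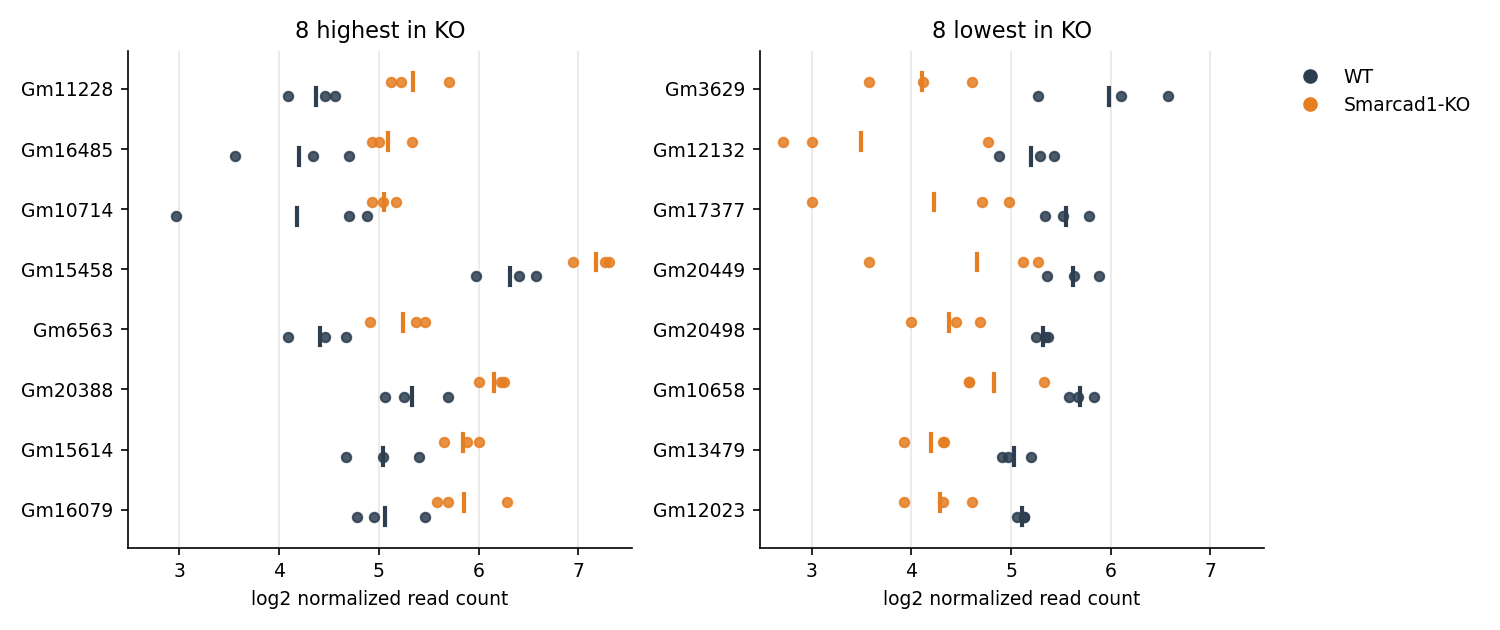
Log2 normalized read count in each WT (dark) and Smarcad1-KO (orange) library for the 8 highest and 8 lowest Gm peaks whose groups did not overlap; bars are group means of 3 libraries. The groups are apart in all 16 because they were chosen so, and the largest difference is -1.88 at Gm3629.

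Members beyond 1 whose groups overlapped were named after their values were seen. Gm14443 (chr2:175175701-175176300, over its own start, 6 further copies) was the only member beyond 1 upward, with 5.50, 4.58 and 6.13 in WT and 6.21, 5.98 and 7.32 in KO and a difference of 1.10 (standard error 0.40). Each KO library lay above the WT library of the same number, but WT3 lay above KO2. Downward, Gm10344 (-1.40), Gm13974 (-1.14), Gm13734 (-1.07) and a second Gm12132 peak (chr11:40330951-40331250, -1.05) each rested on libraries with 5 or fewer reads in the lowest sample. The lowest count was 1 read, in Gm10344.

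Among genes with many members, Gm20388 had the most by far, 244 peaks or 8.46% of all members. Its model runs over 4435 kb of chromosome 8 (119910841 to 124345722), and 243 of its peaks lay in its introns. As in each other gene with 8 or more members, every peak between the first and last of Gm20388 carried its name. Of these 244 peaks, 160 overlapped a gene with another name and 47 lay at the start of one. Its 6 strongest peaks were all such starts, at Gins2 of the DNA replication complex GINS (10.28), Banp (9.87), Ankrd11 (9.70), Mvd of cholesterol synthesis (9.62), the F-box gene Fbxo31 (9.53) and Aprt of purine salvage (9.50). The 47 peaks at other starts had a median WT strength of 8.21, and the other 197 had 6.76. Of the 244 differences, 167 were above 0 and 77 below, with a median of 0.10 and a range of -0.40 to 0.83, and the groups did not overlap in 9 higher (3.69%, all peaks 2.70%) and 5 lower peaks (2.05%, all peaks 4.10%). Without Gm20388 the members' median WT strength was 6.01.

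Next in number were Gm11867 (29 peaks), Gm16039 (27) and Gm13481 (23). Gm11867, on chromosome 4, had no peak above 6.56 in WT, and 20 of its 29 differences were below 0, with a median of -0.19. Gm16039 on chromosome 6 held a peak at the start of Glcci1 (chr6:8508601-8511600, 10.00) and differences of -0.57 to 0.76 around a median of -0.02. Gm13481 on chromosome 2 had a strong intron peak (chr2:48440851-48443100, 9.12) and a median difference of -0.07.

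Over the 39 genes with 8 or more members, median differences ran from -0.39 to 0.25. The lowest medians were those of Gm17094 and Gm12132, which were singled out after their values were seen. Gm17094, an antisense gene on chromosome 4 (39399001 to 39443700), had 8 of 8 peaks below 0, from -0.62 to -0.20. The groups did not overlap in 3 of the 8, all lower in KO, where the share over all peaks was 4.10%. The mean of its 8 peaks was 5.75, 5.35 and 5.52 in WT1 to WT3 and 5.05, 5.11 and 5.27 in KO1 to KO3. The groups of these means did not overlap, in a gene picked for the lowest of the 39 medians. Gm12132, a lincRNA on chromosome 11, had 13 of 16 peaks below 0 with a median of -0.37, over 40013251 to 40337700. The mean of its 16 peaks was 5.74, 5.18 and 5.60 in WT and 4.94, 5.22 and 5.22 in KO, and KO2 and KO3 lay above WT2. Its strongest peak (chr11:40256701-40258350, in an intron) measured 7.42, 6.81 and 7.16 in WT and 6.17, 6.84 and 6.17 in KO, a difference of -0.74 (standard error 0.29, limma adjusted p 1).

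The highest medians were those of Gm16083 on chromosome 1 (0.25, 7 of 9 peaks above 0), Gm239 on chromosome 10 and Gm12216 on chromosome 11 (0.19 each). The mean of the 11 Gm239 peaks was 5.93, 6.06 and 6.32 in WT and 6.35, 6.31 and 6.53 in KO, and KO2 lay just under WT3. Its 4 weakest peaks, with WT strengths of 4.26 to 4.88, had the largest differences, 0.54 to 0.86, while its strongest (9.91) differed by 0.05. The peaks of 1 gene share their libraries and are no independent replicates, and no test was made over them.

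**Figure D5:**
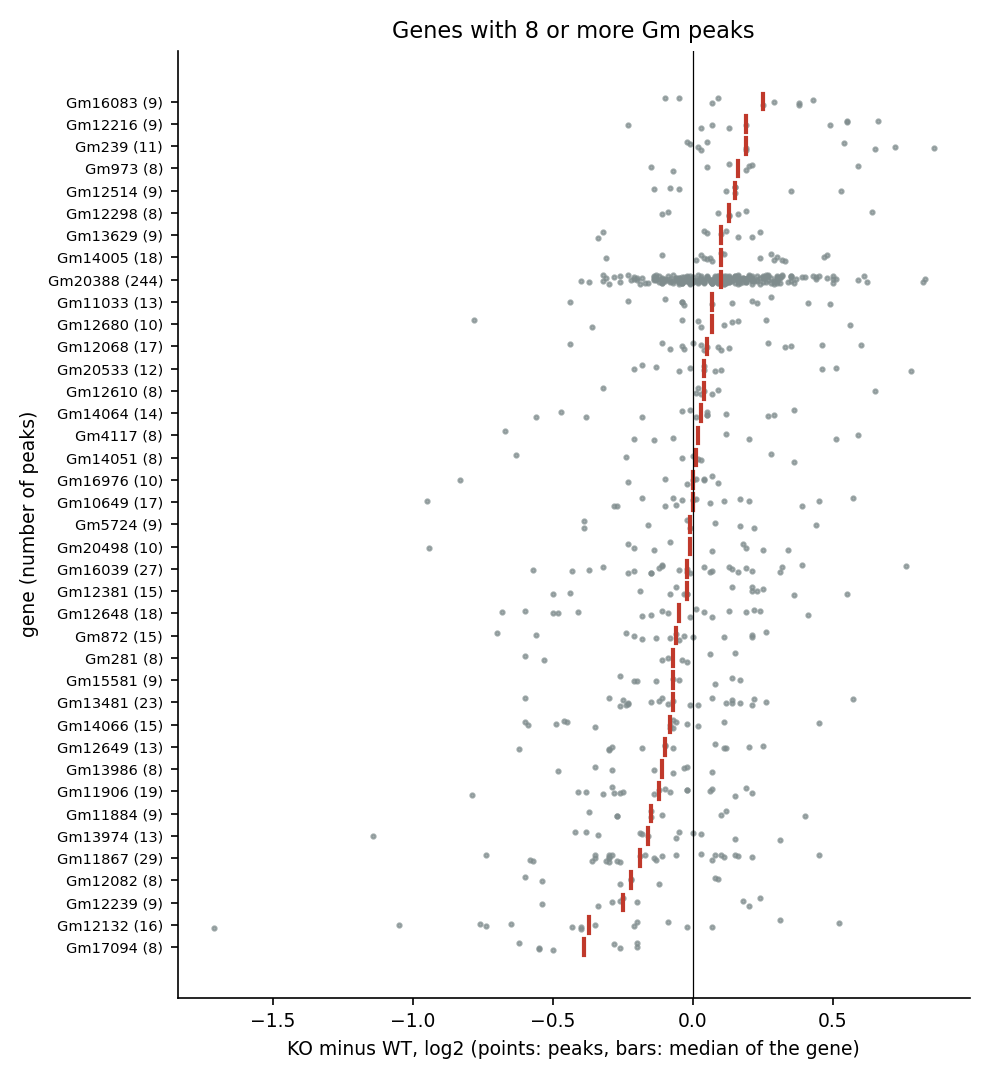
KO minus WT log2 difference of each Gm peak (grey points) of the 39 genes with 8 or more, ordered by the median of the gene (red bars), with the number of peaks in brackets. Medians run from -0.39 (Gm17094) to 0.25 (Gm16083), and the widest range is that of Gm12132, -1.71 to 0.52.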

How the data were processed

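ATAC-seq libraries of 3 WT and 3 Smarcad1-KO crypt samples were used, grouped by their titles. Per the submitters' processing notes, reads were trimmed with Trim Galore 0.4.1 and mapped to GRCm38 with Bowtie2 2.2.5, and peaks were called with MACS. The authors removed duplicates and set a cutoff on mapping quality when reads were imported. They deposited for each peak a log2 read count scaled to the largest library, in which 1 read is worth 1.00 to 3.99. Which libraries were pooled for peak calling is not given in the sources used here. A column of the authors' edgeR adjusted p-values in the table of changed peaks was not used. Each value was a whole multiple of 1 read or a floor value under 1 read, taken as no read (100% of values per library), so reads were recovered. The floor was met at 1 peak in KO1 and 32 peaks in KO3. Without molecular identifiers, reads are not independent molecules.

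The members and gene lists were chosen with earlier results of these data known. KO was compared with WT by limma 3.58.1 in R 4.3.3 (lmFit and eBayes with a trend, two-sided, no block) on all peaks, with Benjamini-Hochberg adjustment at 0.05, and the fit was checked on simulated data. Other named peaks were weighted to the members in 10 bins of WT strength. Gene positions came from GENCODE vM21 with bedtools 2.31.1, and copies from minimap2 2.31 on the RefSeq GRCm38 genome. Peaks were named by rule: the 8 highest and 8 lowest differences among members whose groups did not overlap and whose linear mean was at least 20, the 6 strongest in WT, the 4 genes with most members, the 2 smallest unadjusted p in each direction, and members of the authors' table. Alternatives were other scalings, voom on recovered reads, a filter, a pseudocount of 5, the replicate block and each library left out.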

Additional observations from a re-analysis of the deposited data

How the results depend on the processing

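A minimum mean of 20 removed no peak. The median member held 20 reads in KO3, the shallowest library, and leaving that library out also called 0 members. Under each scaling, filter and pseudocount, 0 members were called by limma, while the count over all peaks was 2 after median centring, 3 after quantile normalization and 3 with voom. Leaving out 1 library called 0 to 30 of all peaks and 0 to 1 members, the 30 and the 1 (Gm3629) without KO2. It gave 21 to 130 members at an unadjusted p below 0.05, the extremes without WT1 and WT2, and 327 to 534 whose groups did not overlap, a count that rises with fewer libraries to keep apart. These leave-out counts have no share over all peaks beside them. Quantile normalization gave 96 members at an unadjusted p below 0.05. That count also has no share over all peaks beside it, so it is no result about Gm peaks in particular. A minimum mean of 50, added after seeing the data, left 1891 members. Of these, 23 (1.22%, all such peaks 1.35%) had an unadjusted p below 0.05 and 94 (4.97%, all such peaks 5.00%) had groups that did not overlap.

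The share of members beyond 1 was 0.277% to 0.867% without 1 library, with 0.832% without WT2, 0.693% without WT3, 0.589% without KO1 and 0.867% without KO2. It was 0.0693% at a limit of 1.5, 7.63% at 0.5 and 0.0529% at a minimum mean of 50. The difference from other named peaks of equal strength was -0.16 to 0.13 percentage points without 1 library and 0.82 at a limit of 0.5, and it changed sign to 0.05 with a pseudocount of 5 and to 0.03 at a limit of 1.5. The difference in WT strength was -0.05 per kb of width, -0.26 in the same classes of distance to a gene start and -0.23 without Gm20388, left out after seeing the data, and -0.18 to -0.14 without 1 WT library. The cause was not tested for any of these.

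Over all peaks, the deviations of same-numbered WT and KO libraries from their groups had correlations of 0.04, 0.42 and 0.41 for numbers 1 to 3. Over the members, the median deviation from the group was -0.17 in WT2 and -0.16 in KO2, and 0.17 in WT3 and 0.20 in KO3. Libraries numbered 2 thus lay low and those numbered 3 lay high in both genotypes. Whether the numbers mark a batch or a pairing is not given by the labels and was not tested. With the replicate block, limma called 272 of all peaks (0.220%) and 6 members, at Gm14443, Gm16559, Gm12132, Gm3629, Gm15458 and Gm20513. It gave 213 members (7.39%, all peaks 6.87%) at an unadjusted p below 0.05, and 748 (25.9%, all peaks 26.3%) in which all same-numbered pairs differed in the same direction. The block left the differences as they were, with the share beyond 1 at 0.277%.

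Of 324 values of the 26 named peaks under alternatives, 24 changed sign, at 10 peaks with differences of 0.21 or less in size. Without 1 library these ran from -0.09 to 0.44 at Gm10800, -0.08 to 0.35 at Gm10801, -0.31 to 0.25 at Gm15927, -0.30 to 0.09 at Gm16091, -0.29 to 0.39 at Gm7461, -0.09 to 0.14 at Gm14966, -0.18 to 0.21 at the Gm20388 peak over Gins2, -0.24 to 0.03 at Gm11867, -0.34 to 0.36 at Gm16039 and -0.14 to 0.54 at Gm13481. Quantile normalization gave -0.68 (Gm10800) and -0.01 (Gm15927), voom -0.04 (Gm15927) and -0.01 (Gm7461), and median centring 0.00 (Gm16039). Of the rest, 297 kept direction and side of the threshold, and 3 passed it, Gm3629 without KO2 and Gm3629 and Gm15458 with the block.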
